A study of Mus musculus with 55 samples.

Results

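The genes described here are 40 genes of complement, coagulation and fibrinolysis that are made mainly by the liver. They were chosen by symbol from the 37620 genes quantified in the livers of Collaborative Cross (CC) mice. CC lines were bred from 8 inbred founder strains, so that each line carries its own fixed mixture of founder genomes and line mates are close to genetically identical. Polyadenylated RNA was sequenced from the liver of 55 mice of 29 lines, of which 8 lines had 1 mouse, 16 had 2 mice and 5 had 3 mice. All mice were untreated males between 8 and 11.9 weeks old that weighed between 12.8 and 38 g, and a line is the only group that the labels give. The question that the design addresses is how far hepatic expression differs among lines beyond the differences between mice of 1 line. No batch is named in the labels, which also do not say whether line mates shared a cage or a litter, so that line, age and such shared conditions cannot be told apart.

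Complement is a cascade of plasma proteins that mark and lyse microbes. It is started by antibody-bound C1, by mannose-binding lectins with their MASP proteases, or by the alternative pathway with factor B and factor D, and it ends in a pore built from C6, C8 and C9 with other components. Coagulation is a chain of proteases that turns fibrinogen into fibrin, and plasmin dissolves the clot. Hepatocytes secrete nearly all of these proteins, and several of them, with fibrinogen foremost, are acute-phase proteins whose synthesis rises in inflammation. Factor D (Cfd) is the exception, since fat cells are its main source.

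The depth was between 20542671 and 33953036 estimated fragments per mouse, with a median of 27700357. The 40 genes took between 2.87% and 9.46% of these fragments (median 4.13%). Of 47 mice with a line mate, 42 were most alike to a mate over all total-expression traits. The mice of IL-1052 and IL-2750 were intermixed, since mouse 1 of IL-1052 was most alike to mouse 1 of IL-2750 (Spearman rho 0.972) and less alike to its own mate (0.913). IL-2126, with 1 mouse, and IL-2146, with 2, held the highest line mean for 16.8% and 13.2% of all traits. IL-2156, with 3 mice, had the highest line mean of the summed level of 7 acute-phase genes. There the acute-phase gene Saa1 stood at 12858, 16214 and 38298 FPKM, against a median of 186 FPKM over all mice. The lines overlapped, since the acute-phase sum was 75825 FPKM in mouse 1 of IL-2011 and 39768 and 50205 FPKM in mice 1 and 2 of IL-2156. All 5 hepatocyte markers were expressed in every mouse (summed level between 15035 and 65197 FPKM).

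Of the 40 genes, 39 passed the study's rule for a total-expression trait, which asks for a maximum of at least 2 FPKM and at least 12 distinct levels. FPKM are fragments scaled to the length of the transcript and to the depth of the library, a level per length. The exception was Cfd, with a median of 0.04 FPKM and a maximum of 5.88. Averaged over lines, the other 39 genes ranged from 14.02 FPKM for Pros1 (protein S) to 2876 FPKM for Fgb (fibrinogen beta chain). Differences among lines were tested on estimated counts with edgeR in 47 mice, those of the 21 lines that had more than 1 mouse. By this test 39 of the 40 genes differed among lines at an adjusted p under 0.05, where 88.5% of all 15285 genes tested were called. The share of called genes is therefore near that of the whole liver transcriptome. The single gene not called was Plg (plasminogen), with an adjusted p of 0.0967 in edgeR and 0.00457 in DESeq2.

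**Figure D1:**
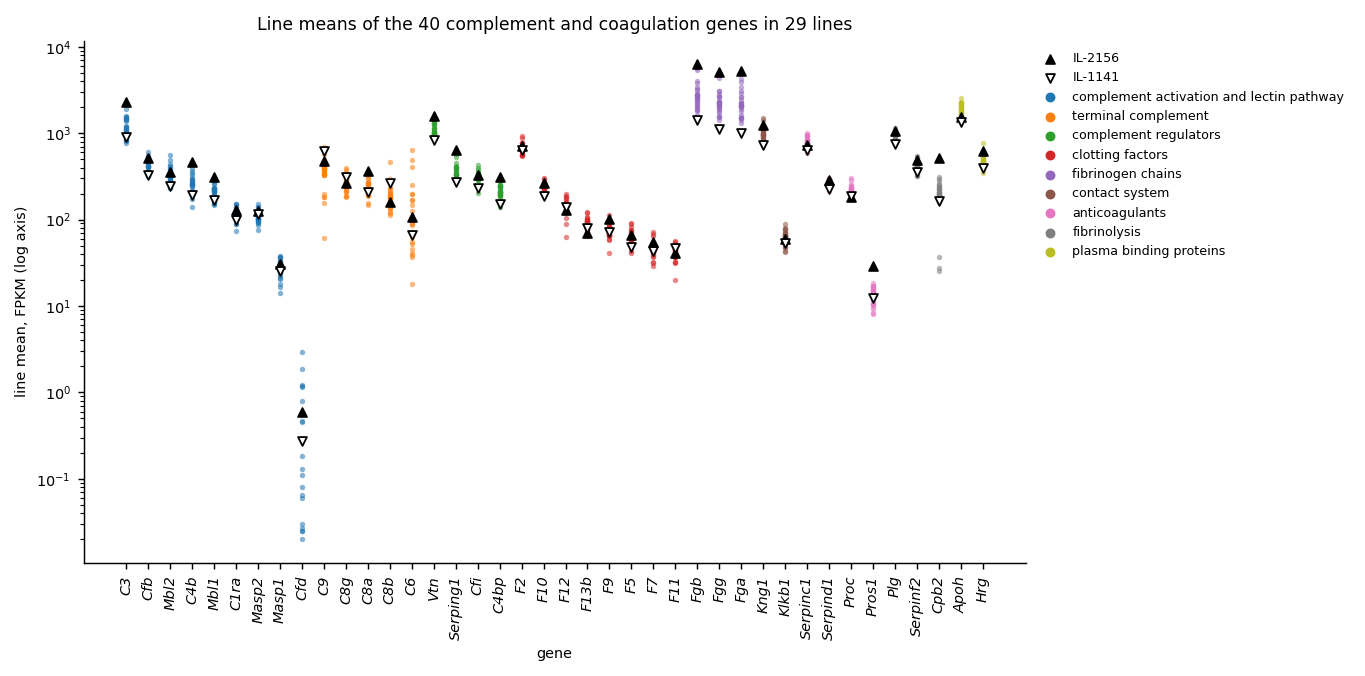
Line means in FPKM (log axis) of each of the 40 genes, coloured by role, with 1 point for each of 29 lines; IL-2156 (3 mice) and IL-1141 (1 mouse) have their own symbols, and the 8 lines in which Cfd is listed at 0 are not drawn. IL-2156 holds the highest mean for 12 genes and IL-1141 the lowest for 9.

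The plot of line means shows that most genes stayed within a narrow band and a few spread widely. The fold between the highest and the lowest line mean had a median of 2.24 over the 39 genes (quartiles 1.93 and 3.08). The median was 2.59 over all 5949 total-expression traits and 2.27 over the 3189 traits expressed at least as highly as the lowest of the 39. The fold was at least 2 for 28 of the 39 genes, where 73.5% of all traits reached it, and at least 4 for 7 of them, where 30.0% did. The highest and lowest lines were picked by their values, so a fold is a description without a test. In bulk liver, fewer hepatocytes and less RNA per hepatocyte cannot be told apart.

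The line share of variance is the share of a gene's variance, on van der Waerden scores, that lies between lines and not between mice of 1 line. Its median over the 39 genes was 0.595, with quartiles of 0.439 and 0.668. Over all traits the median was 0.592. The 95% interval of the share lay above 0 for 33 of the 39 genes, where 89.4% of all traits had such an interval. The spread between mice of 1 line, as the median SD on the log2 scale, was 0.195 for these genes and 0.188 for all traits. It was 0.176 for the traits expressed at least as highly as the lowest of the 39.

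**Figure D2:**
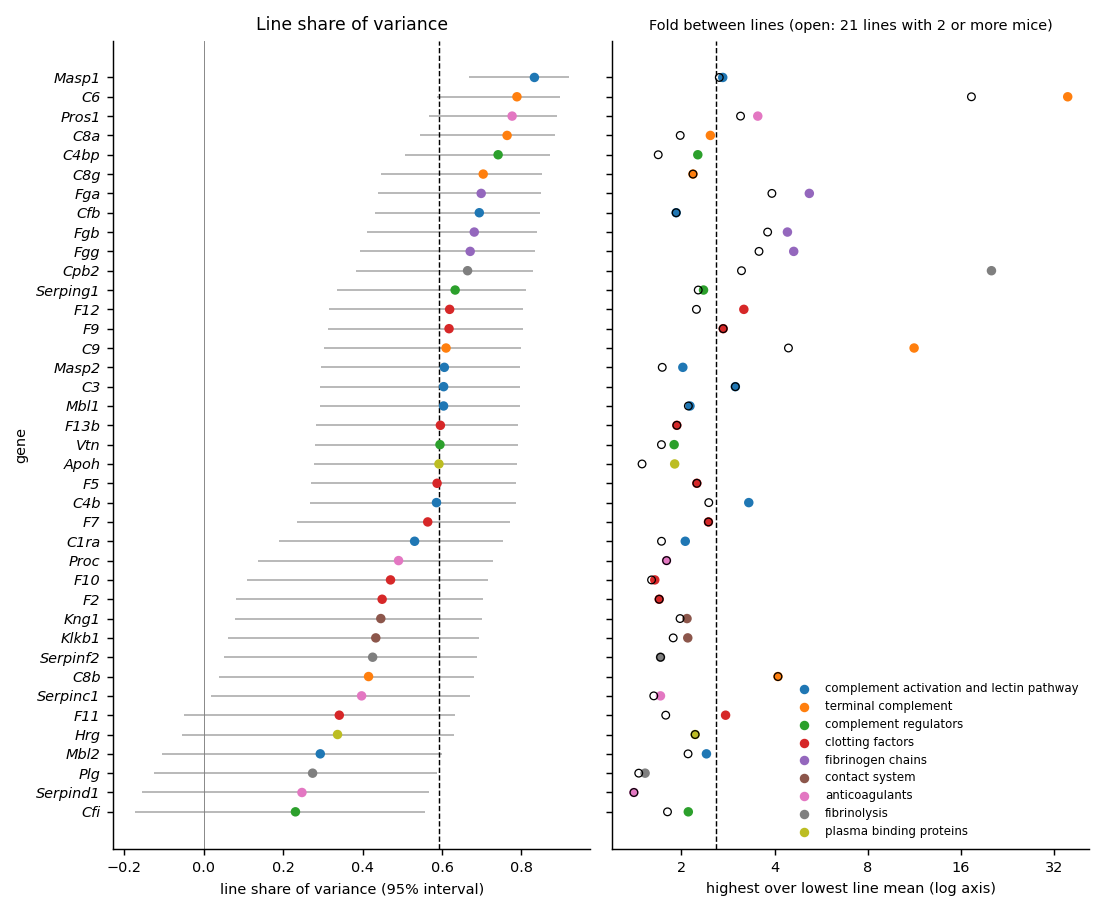
Left, line share of variance of the 39 genes with its 95% interval; right, fold between the highest and lowest line mean (log axis) over 29 lines (filled, coloured by role) and over the 21 lines with at least 2 mice (open); dashed lines are medians of all 5949 traits. C6, Cpb2 and C9 stand apart on the right, and for each of them the fold is smaller without the lines that have 1 mouse.

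Among the genes that start complement, the lectin-pathway protease gene Masp1 had the highest line share of variance of all, at 0.833 (95% interval 0.667 to 0.919). Its level was between 12.98 and 37.93 FPKM, with a median of 28.2. The 2 mice of IL-4457 stood lowest at 14.92 and 12.98 FPKM, below every mouse of the other lines, and the 3 mice of IL-611 lay close together at 37.2, 35.9 and 37.2 FPKM. The edgeR test gave Masp1 an adjusted p of 7.04e-08. Its partner Masp2 varied less (fold 2.02, share 0.606).

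C3, the component on which all complement pathways converge, ranged from 598 to 3501 FPKM with a median of 1094. Its highest line mean was that of IL-2156, 2321 ± 1074 FPKM (SD, n = 3), and its lowest that of IL-2750, 777 ± 208 (n = 3), a fold of 2.99. The 3 mice of IL-2156 stood at 1401, 2060.2 and 3501 FPKM, and the lowest of them overlapped mice of other lines. Cfb, the protease precursor of the alternative pathway, had a smaller fold of 1.92, between 315 ± 63.4 FPKM in IL-2750 (n = 3) and 606 ± 23.1 in IL-72 (n = 2). C4b, a component of the classical and lectin pathways, reached 458 ± 87.9 FPKM in IL-2156 (n = 3), against 139 in IL-1452 (n = 1). The share was 0.604 for C3, 0.694 for Cfb and 0.586 for C4b.

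The mannose-binding lectin genes differed from each other. Mbl1 had a share of 0.604 and a fold of 2.13. Mbl2 was among the 4 genes with the lowest share, at 0.293, and its interval included 0, with a lower bound of -0.105. Mice of 1 line differed widely in Mbl2, with 181 and 279.7 FPKM in the 2 mice of IL-519, against a range of 160.0 to 555 FPKM and a median of 310.1 over all mice. C1ra, a protease of the C1 complex, was lowest in IL-1452 (73.5 FPKM, n = 1) and highest in IL-2680 (151 ± 23.5, n = 2). Its gene model overlaps that of C1rb on the same strand, and only 23.6% of mice had a whole estimated count for it (within 0.005), so that fragments were shared out among models and its value is uncertain. The same limit holds for C4b, Cfb, Masp2 and Kng1, for which no mouse had a whole count, for F5 (1.82% of mice) and for Klkb1 (25.5%), and for the pairs and ratios that contain them.

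The 5 genes of the terminal complex had a median fold of 4.10, with a range of 2.18 to 35.5, and a median share of 0.704. C6, which joins the complex after C5 is cleaved, varied most. It lies on chromosome 15 at 4677175 to 4765456 (NCBI build 37, plus strand). Its level was between 17.8 and 1116 FPKM over the 55 mice, with a median of 102. The line means ran from 17.8 FPKM in IL-1452 (n = 1) to 630.4 ± 426 in IL-785 (n = 3), a fold of 35.5. The 3 mice of IL-785 stood at 1116, 455 and 321 FPKM, and the 2 mice of IL-4052 at 482 and 493. These 2 lines overlapped each other and lay above the median of 102 FPKM in every mouse. The line share was 0.789 (0.588 to 0.896) and the edgeR adjusted p 9.32e-07.

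The size of the C6 range depended on the unit and on 1 line. In counts scaled to library size with TMM factors, which are not scaled for length, the fold was 25.4. Without IL-1452 it was 17.3 in FPKM. The mice of IL-1052 (122 and 377 FPKM) and IL-2750 (87.6, 322 and 96.8) fell into a high and a low set that crossed the labels. Without those lines the share of C6 was 0.849.

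C9, which forms the ring of the pore, had a median of 394 FPKM and a fold of 11.3 between lines. IL-2126, with 1 mouse, had the lowest level, 61.5 FPKM. A set of 4 further lines lay between that mouse and the rest: IL-3912 at 161 and 152 FPKM, IL-219 at 153 and 210.3, IL-4141 at 183 and IL-521 at 172 and 227. The next line mean, in IL-519, came from mice at 299 and 351 FPKM. IL-2146 was highest, with 538 and 852 FPKM. Without IL-2126 the fold was 4.43. The edgeR test, which did not include IL-2126 or IL-4141, gave C9 an adjusted p of 2.22e-06.

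**Figure D3:**
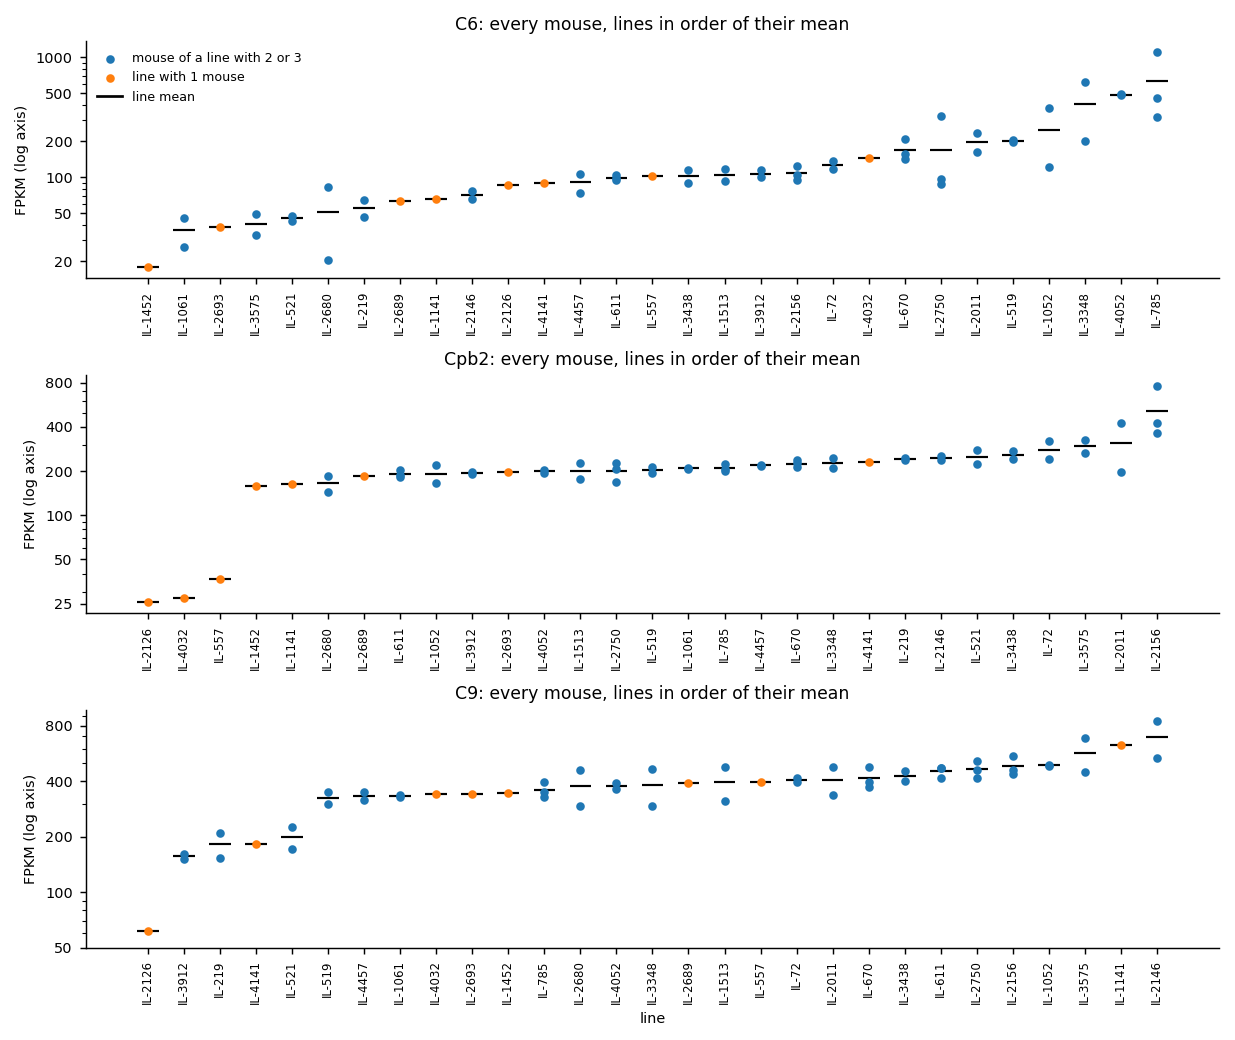
FPKM (log axis) of every mouse for C6, Cpb2 and C9, with lines in order of their mean (black bars); orange points are lines with 1 mouse. C6 rises gradually from 17.8 to 1116 FPKM, while Cpb2 has 3 mice at 25.6 to 36.9 FPKM and 52 mice at 145 FPKM or more.

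C8a, C8b and C8g encode the 3 chains of C8. C8a and C8g had line shares of 0.764 and 0.704, and C8b had 0.415. C8b had the largest fold of the trio, 4.10, since the 2 mice of IL-2146 stood at 419 and 499.9 FPKM, above every other mouse, while the median was 179. Without the intermixed lines IL-1052 and IL-2750 the share of C8b was 0.658. C8a was highest in IL-2156, at 329, 384 and 386 FPKM, and lowest in IL-1452, at 148. C8g was highest in IL-2146, at 417 and 373 FPKM, and lowest in IL-4457, at 172 and 190.4.

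Of the regulators of complement, C4bp, which holds C4b in check, had the fifth highest share, at 0.741 (0.508 to 0.871). Its 3 mice of IL-2156 stood at 289, 294 and 357 FPKM, against 139 in IL-2126, and its edgeR adjusted p was 0.00471, or 0.0778 without IL-2156. Cfi, the protease that cleaves C3b and C4b, had the lowest share of all 39 genes, at 0.231 (-0.174 to 0.556). Line mates differed in Cfi nearly as much as lines did: those of IL-2680 had 384 and 219.6 FPKM within a range over all mice of 203 to 468. Cfi was called by edgeR at an adjusted p of 0.0144. Its share was 0.407 in TMM-scaled counts and 0.358 without IL-1052 and IL-2750. Serping1, the inhibitor of C1, and Vtn (vitronectin), which blocks the terminal complex, had shares of 0.633 and 0.595, and both were highest in IL-2156.

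The 8 clotting factor genes ranged from 41.5 FPKM (F11) to 672 FPKM (F2, prothrombin) in their mean over lines. Their folds lay between 1.64 for F10 and 3.18 for F12, and their shares between 0.341 for F11 and 0.619 for F12. The share of F11 was 0.554 on TMM-scaled counts and 0.552 without IL-1052 and IL-2750. F12, the starter of the contact pathway, was lowest in IL-557 (n = 1), at 62.7 FPKM, and highest in both mice of IL-3348, at 193 and 206. F9, whose loss causes haemophilia B and which lies on the X chromosome, was lowest in IL-2146, at 31.9 and 50.1 FPKM, and highest in IL-2011, at 104 and 119.8. IL-2146, the lowest line in F9, was the highest line in F2 and F11. F11 owed its fold of 2.78 to 1 mouse, that of IL-2693 at 20.1 FPKM, without which it was 1.78. F7 and F10, neighbours 1498 bases apart on chromosome 8, were highest in different lines, F7 in IL-785 and F10 in IL-2126.

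The 3 fibrinogen genes, Fga, Fgb and Fgg, were the most highly expressed genes of the set and lie within 27193 bases of one another on chromosome 3. Each chain is needed for the secreted hexamer. Fgb had a range of 1114 to 10356 FPKM with a median of 2629. Fga ranged from 864 to 8499 FPKM around a median of 2126, and Fgg from 1060.2 to 8418 around 2297. All 3 genes had the same lowest line and the same 3 highest lines. The lowest was IL-1141, whose single mouse had 1001, 1417 and 1103 FPKM of Fga, Fgb and Fgg. The highest was IL-2156, with 6235 ± 3662 FPKM of Fgb (SD, n = 3), followed by IL-2011 and IL-72.

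The upstream sequences of the fibrinogen genes are shown because the genes moved together across lines. They are the 250 bases before the annotated start of each gene, 5′ to 3′ on the strand of the gene, from RefSeq on build GRCm38.p6, which is not the build of the counts. Capitals mark 2 motifs searched on both strands, CTGGGAA, the core of an element through which interleukin 6 acts on fibrinogen genes, and TTNNGCAA, a binding-site form of the C/EBP factors. The motifs did not overlap in these windows.
Fga, chr3:83025903-83026152, plus strand: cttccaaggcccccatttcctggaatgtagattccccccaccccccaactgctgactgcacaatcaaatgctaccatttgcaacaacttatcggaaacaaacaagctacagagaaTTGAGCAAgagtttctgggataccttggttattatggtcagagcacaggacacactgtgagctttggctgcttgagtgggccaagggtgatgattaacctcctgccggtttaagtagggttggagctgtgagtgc
Fgb, chr3:83049864-83050113, minus strand: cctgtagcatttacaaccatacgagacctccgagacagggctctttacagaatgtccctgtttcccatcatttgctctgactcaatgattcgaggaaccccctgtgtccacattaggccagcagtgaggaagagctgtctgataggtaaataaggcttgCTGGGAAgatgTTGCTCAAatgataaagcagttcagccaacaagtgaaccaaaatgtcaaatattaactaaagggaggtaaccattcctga
Fgg, chr3:83007474-83007723, plus strand: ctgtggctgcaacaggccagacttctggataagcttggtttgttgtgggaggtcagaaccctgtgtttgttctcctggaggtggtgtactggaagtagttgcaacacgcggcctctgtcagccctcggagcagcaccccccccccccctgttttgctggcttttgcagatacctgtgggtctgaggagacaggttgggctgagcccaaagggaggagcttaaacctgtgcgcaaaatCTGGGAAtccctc

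CTGGGAA starts 91 bases before the start of Fgb and 13 bases before that of Fgg, and these letters are not in the window of Fga. TTNNGCAA starts 135 bases before the start of Fga and 80 bases before that of Fgb. Among the 32 members with a sequence in the table, 5 held CTGGGAA (15.6%; C1ra, F9, Fgb, Fgg and Masp2) and 8 held TTNNGCAA (25.0%; C3, C9, F11, F9, Fga, Fgb, Hrg and Klkb1). Of all 32851 promoters, 9.10% held the first and 9.56% the second. A member counted as a match if any of its windows matched, while all promoters were counted window by window. The percentages are therefore not in the same unit. A match is a description of the letters only. Serping1, C4b, Proc, Plg, Masp1, Kng1, Cfi and Cfb have no entry in the table.

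Fibrinogen also differed between mice of 1 line. The 3 mice of IL-2156 had 3354, 4995 and 10356 FPKM of Fgb, so that the lowest of them lay below mice of other lines. The mice of IL-2011 had 7487 and 3715 FPKM of Fgb, and their Saa1 stood at 26264 and 1352. In IL-72, where Fgb was 4969 and 5799 FPKM, Saa1 was 1996 and 7733. In other lines mates differed in Saa1 and were close in Fgb: those of IL-3575 had 36.0 and 9466 FPKM of Saa1 with 3891 and 3656 of Fgb, and those of IL-3438 had 2368 and 8374 of Saa1 with 3380 and 3163 of Fgb. The part of acute-phase genes in the difference among lines was not tested. The line share was 0.698 for Fga, 0.681 for Fgb and 0.671 for Fgg, and the edgeR adjusted p was 0.000196, 0.000296 and 0.000363. Without IL-1141 and the other lines with 1 mouse, the folds of 5.18, 4.40 and 4.61 were 3.92, 3.80 and 3.56.

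**Figure D4:**
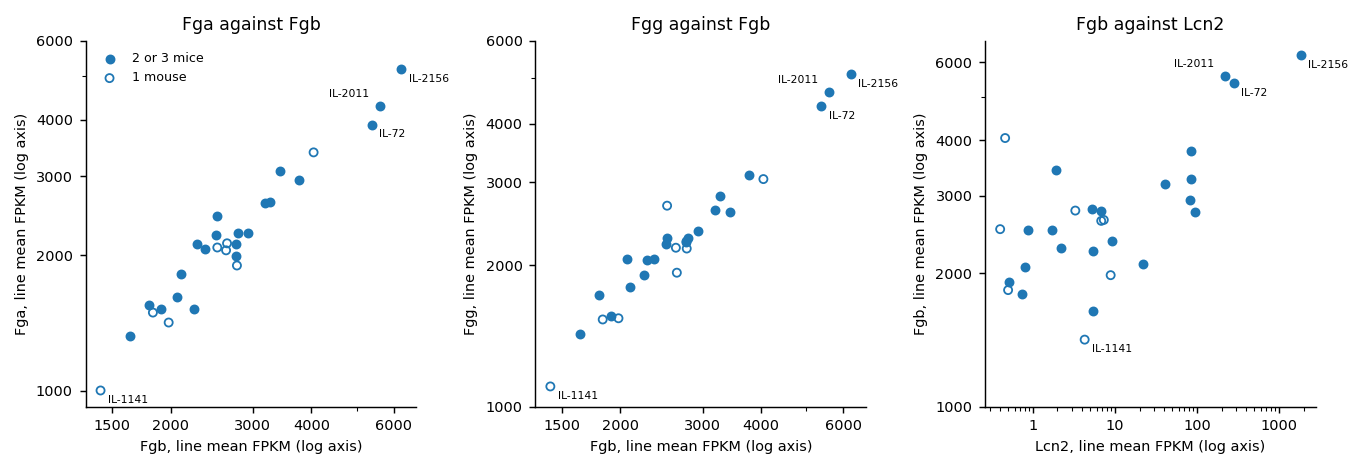
Line means in FPKM (log axes) of Fga against Fgb, of Fgg against Fgb and of Fgb against the acute-phase gene Lcn2, with open symbols for lines with 1 mouse. The chains lie near 1 line (r = 0.969 and r = 0.972 over 29 lines), while Fgb and Lcn2 scatter widely apart from IL-2156, IL-2011 and IL-72 (r = 0.649).

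Kng1 (kininogen) and Klkb1 (plasma prekallikrein) form the contact system with factors XI and XII. Both had a fold near 2, 2.08 and 2.096, and shares of 0.446 and 0.433. Kng1 was highest in IL-3575, at 1500 ± 214 FPKM (n = 2), and lowest in IL-1141, at 719.5 (n = 1). The value of Klkb1 is uncertain, since its model shares 2666 bases with Cyp4v3 on the same strand and Cyp4v3 averaged 99.5 FPKM against 62.8 for Klkb1.

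The anticoagulant genes had line shares between 0.247 for Serpind1 and 0.776 for Pros1. Pros1, the cofactor of activated protein C, had a share of 0.776 (0.567 to 0.890) and an adjusted p of 5.58e-06. In IL-2156 its 3 mice stood at 17.2, 34.5 and 34.2 FPKM. The highest mouse of another line had 18.99 FPKM, so that the first of them lay within the range of other lines. Its fold was 3.53, or 2.30 without IL-2156. Serpind1 (heparin cofactor II) was the most uniform gene, with a fold of 1.40 between 212 ± 4.53 FPKM in IL-4457 and 298 ± 5.94 in IL-219 (both n = 2). Its share was 0.247 (-0.156 to 0.568) on the scores of FPKM and 0.543 on those of TMM-scaled counts. Proc (protein C) and Serpinc1 (antithrombin) lay between, with shares of 0.490 and 0.397 and folds of 1.79 and 1.71. On TMM-scaled counts the share of Proc was 0.739.

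Fibrinolysis held both a gene with a small fold between lines and the second widest range of all. Plg had a fold of 1.53 and a share of 0.274 (-0.127 to 0.587), with a range of 675 to 1301 FPKM and a median of 884. Cpb2 encodes the carboxypeptidase that slows fibrinolysis, and it had a fold of 20.1. The single mice of IL-2126, IL-4032 and IL-557 stood at 25.6, 27.2 and 36.9 FPKM of Cpb2, while each of the other 52 mice had 145 FPKM or more. These 3 low levels rest on 747 to 1369 estimated fragments. None of the 3 lines has a second mouse, so the low level has no replicate within a line. Without the lines with 1 mouse the fold was 3.13, and without IL-2156, which held the top at 365, 423 and 756 FPKM, it was 12.2. The edgeR test, which left the 3 low lines out, gave an adjusted p of 9.13e-05, and with all 55 mice it gave 1.17e-08. Serpinf2, the inhibitor of plasmin, had a fold of 1.71.

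Of the 2 further plasma proteins, Hrg (histidine-rich glycoprotein) was highest in IL-3575 (772 ± 43.6 FPKM, n = 2) and Apoh (beta-2-glycoprotein I) in IL-4141 (2562, n = 1). Their shares were 0.337 and 0.592, and that of Hrg was 0.544 without IL-1052 and IL-2750.

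The ends of the ranges gathered in a few lines. IL-2156 held the highest line mean for 12 of the 39 genes (30.8%), where it did so for 3.45% of all traits. They were C3, C4b, C4bp, C8a, Cpb2, Fga, Fgb, Fgg, Mbl1, Pros1, Serping1 and Vtn. For 17 genes (43.6%) all 3 mice of IL-2156 lay above the median of the other mice, where this held for 22.7% of all traits, and for none of the 39 did they lie above every other mouse. IL-1141 held the lowest mean for 9 genes (23.1% against 3.41% of all traits), and its single mouse lay below the median of the others for 34 genes (87.2% against 54.4%). IL-1452, also with 1 mouse, held the lowest mean for 7 genes (17.9% against 6.59% of all traits). Its mouse lay below the median of the others for 32 genes (82.1% against 60.2%) and below every other mouse for 6 (15.4% against 2.82%), where that of IL-1141 did so for 1 gene. IL-2146 was highest for 7 genes (17.9%), which is near its 13.2% of all traits, and this line was also lowest for 11.9% of all traits. IL-2156 also had the highest sum of the 7 acute-phase genes, 66346 FPKM, and IL-1141 the lowest, 1350 FPKM, while the mouse of IL-1452 had 1865 FPKM against a median of 2901 over mice. IL-2156 had the lowest sum of the hepatocyte markers, 25146 FPKM, against a median of 44753 over mice. Most of that sum was Alb (16348 FPKM), and Alb, Apoa1 and Ttr were lowest in this line. The other markers, Ass1 (1102 FPKM) and Cps1 (367), were not: both were lowest in IL-3438, at 726 and 300 FPKM. The part of the acute-phase genes and of the hepatocyte markers in the levels of the 39 genes was not tested. Without IL-2156, edgeR called 38 of the 40 genes and the median share was 0.569.

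Pairs of genes that form 1 protein, lie side by side, or join a gene with a marker of inflammation or of fat cells were compared over the 29 line means of log2(FPKM + 1). Of 23 pairs, 12 were called correlated at an adjusted p under 0.05 (two-sided permutation test, 100000 permutations, Benjamini-Hochberg over the 23 pairs), and all 12 were positive. The points share library and depth with each other. How often other pairs of liver genes would be called was not tested, so the count of 12 has no background to be read against. By Spearman's rho 13 pairs were called.

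The fibrinogen chains were the most tightly tied. Pearson's r was 0.969 for Fga and Fgb (rho 0.925), 0.962 for Fga and Fgg (rho 0.93) and 0.972 for Fgb and Fgg (rho 0.938), each with an adjusted permutation p of 3.83e-05 by r and 5.75e-05 by rho. The unadjusted p of 1e-05 is the smallest that these permutations can give. Without the 2 lines farthest from the median of the first gene, r was 0.958, 0.943 and 0.958. Differences between mice of 1 line were tied as closely, with r between 0.959 and 0.978 as a description.

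The chains of C8 gave another picture. C8a and C8b, 11130 bases apart on chromosome 4, had r = 0.330 (adjusted permutation p = 0.141) and rho = 0.420 (adjusted p = 0.0438). C8g lies on chromosome 2, and its r was 0.069 with C8a (adjusted permutation p = 0.874) and 0.212 with C8b (adjusted permutation p = 0.363). Over mice of 1 line, C8g and C8b went opposite ways, with r = -0.726 as a description. This value includes the intermixed lines IL-1052 and IL-2750, whose mice differed widely. Their SDs were 115 and 79.4 FPKM for C8b, and 76.4 and 45.6 for C8g. No value was computed without these lines, so the r may reflect the crossed labels.

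Neighbours on a chromosome were called in some pairs and not in others. Kng1 and Hrg, 96208 bases apart on chromosome 16, had r = 0.635 (rho 0.636, adjusted permutation p = 0.000402). Kng1 and its near-identical neighbour Kng2 had r = 0.868 (rho 0.887, adjusted permutation p = 3.83e-05), but no mouse had a whole estimated count for Kng1, so that fragments shared out between the paralogs enter this value. C4b and Cfb, 112491 bases apart on chromosome 17, had r = 0.698 (rho 0.697, adjusted permutation p = 0.000153). C4b and its paralog C4a had r = 0.244 (adjusted permutation p = 0.292), and Cfb and C2, which lie 85 bases apart, had r = 0.254 (adjusted permutation p = 0.284). C3 and Cfb, far apart on the same chromosome, had r = 0.702 (rho 0.659, adjusted permutation p = 0.000144).

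No call was made for C6 and C9 (r = 0.097, adjusted permutation p = 0.783), F7 and F10 (r = 0.322, p = 0.141), F11 and Klkb1 (r = -0.034, p = 0.922), Mbl1 and Mbl2 (r = -0.034, p = 0.922), Masp1 and Masp2 (r = -0.029, p = 0.922) or Proc and Pros1 (r = 0.002, p = 0.990). F7 and F10 were called in TMM-scaled counts (r = 0.469, adjusted permutation p = 0.0183), and without IL-670 (r = 0.490, p = 0.0147) or IL-785 (r = 0.431, p = 0.0396).

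Lcn2 is an acute-phase gene with a very wide range, from 0.28 to 1983 FPKM, and its 3 highest mice were those of IL-2156, at 1669, 1983 and 1930.3. It was correlated with C3 (r = 0.803, rho 0.722, adjusted permutation p = 3.83e-05), Cfb (r = 0.711, rho 0.707, adjusted permutation p = 9.86e-05), Fgb (r = 0.649, rho 0.509, adjusted permutation p = 0.000345) and C4b (r = 0.646, rho 0.495, adjusted permutation p = 0.000402). Without the 2 farthest lines r was 0.725, 0.653, 0.445 and 0.611, and each of the 4 pairs was still called, with an adjusted permutation p of 0.0378 for Fgb as the largest. These lines were the farthest in C3, Cfb, Fgb or C4b, not in Lcn2. IL-2156 was among them for C3, Fgb and C4b, but it stayed in for Cfb, where IL-72 and IL-2011 were left out.

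Cfd was listed at 0 in 21 of 55 mice. It was found above 5 FPKM in mouse 2 of IL-1052 (5.88) and mouse 2 of IL-785 (5.53), whose line mates had 0.04 FPKM in IL-1052 and 0.04 and 0.07 FPKM in IL-785. The same 2 mice had the highest levels of the fat-cell gene Adipoq, 8.82 and 1.57 FPKM, where the median was 0. Over line means the r of Cfd and Adipoq was 0.756 (rho 0.565, adjusted permutation p = 3.83e-05). Of 5 fat-cell markers, the sum was between 2.14 and 191 FPKM, the highest in mouse 2 of IL-1052. Cfd was called by edgeR at an adjusted p of 0.0176, on 0 to 133 estimated fragments per mouse, and its line share on scores was below 0, at -0.133 (-0.515 to 0.263). The part of fat tissue in these values was not tested.

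Of the 40 genes, 27 have more than 1 annotated isoform, and 15 of these gave an isoform-ratio trait, which is how much of the gene 1 isoform makes up, in percent. The ratio differed among lines for 12 of the 15 in limma (adjusted p under 0.05), where 32.9% of 6650 isoform traits were called. The median line share of the ratio was 0.509 over the 15 genes and 0.253 over all isoform traits, and 14 of the 15 lay above the latter. Unlike the fold in total expression, neither the calls nor the shares were compared with isoform traits of genes expressed as highly. Whether the difference from all isoform traits would remain at a like level of expression was not tested. The 3 not called were C9, C4bp and Serpinf2, with adjusted p of 0.0707, 0.0858 and 0.113. Of those called, Fgg and Proc were at the edge, with adjusted p of 0.0479 and 0.0470, and lost the call when 1 mouse was left out in 30 and 36 of 47 cases.

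The isoform ratio of C6 had the widest range among lines. ENSMUST00000161997 is a short model of 7 exons and 921 bases that ends within the gene, against 16 exons and 2876 bases of the main isoform ENSMUST00000162585. It took 13.4% on average, 0% in the single mouse of IL-2126, and 52.2%, 41.9% and 35.2% in the 3 mice of IL-785. The mice of IL-4052 stood at 36.1% and 40.7%. The 2 lines with the highest C6 also had the largest share of the short model, and over 29 lines the share and the FPKM had a Spearman rho of 0.710 as a description. FPKM are scaled by isoform length, so a short isoform raises the FPKM of the gene. Without it the fold in C6 was 20.9. The line share of the ratio was 0.776 (0.566 to 0.889, limma adjusted p = 0.00141).

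Serpind1, uniform in its total, had 1 line with another isoform ratio. ENSMUST00000023450 took 19.7% and 11.6% in the 2 mice of IL-3575, while every other line had a mean of 34.4% or more and the mean over lines was 45.7%. It has the same 1434 coding bases as ENSMUST00000161034 and 140 bases more outside them. The call (limma adjusted p = 0.0241) rests on IL-3575: without 1 or the other of its mice the adjusted p was 0.0595 and 0.0754. Pi4ka lies over Serpind1 on the opposite strand, and counting with default settings does not use strand.

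For Cfb, ENSMUST00000025229 took 13.8% and 20.5% in IL-1513 and 56.7% and 57.8% in IL-72 (limma adjusted p = 0.0111). It shares all but 345 bases with ENSMUST00000154526, which lacks 150 of its coding bases. Line mates also differed in this ratio, by an SD of 7.88 percentage points within lines. Gm20547 overlaps 6107 bases of the Cfb gene on the same strand, so that the ratio is uncertain.

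Masp1 encodes distinct proteases through alternative last exons. ENSMUST00000023605 ends in the exons of MASP-1, and ENSMUST00000089883 in a single exon of MASP-3, whose 884 own bases lie on chromosome 16 at 23469920 to 23470803 (NCBI build 37). The MASP-1 form took 80.5% on average, from 63.8% and 73.9% in the 2 mice of IL-3575 to 94.0% in IL-2126 (n = 1). The ratio differed among lines (limma adjusted p = 0.0128, share 0.459).

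The main isoform of C8a, ENSMUST00000064873, took 67.8% in IL-2126 and 96.7% and 94.1% in the mice of IL-2146 (limma adjusted p = 0.0353). The call was lost in 6 of 47 cases with 1 mouse left out, with adjusted p of 0.111 and 0.0703 without 1 or the other mouse of IL-2146, and at 0.0543 without IL-1052 and IL-2750. That of C4bp, ENSMUST00000027657, took between 61.9% in IL-1141 and 87.1% in IL-2126, both with 1 mouse, and was not called. IL-2126 held the lowest or highest mean in 4 of the 6 ratios described, which were chosen for their wide range. How often it did so over all isoform traits was not determined. In total expression this line was highest for 16.8% and lowest for 5.97% of all traits. Its single mouse has no replicate and had the lowest depth of all mice.

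**Figure D5:**
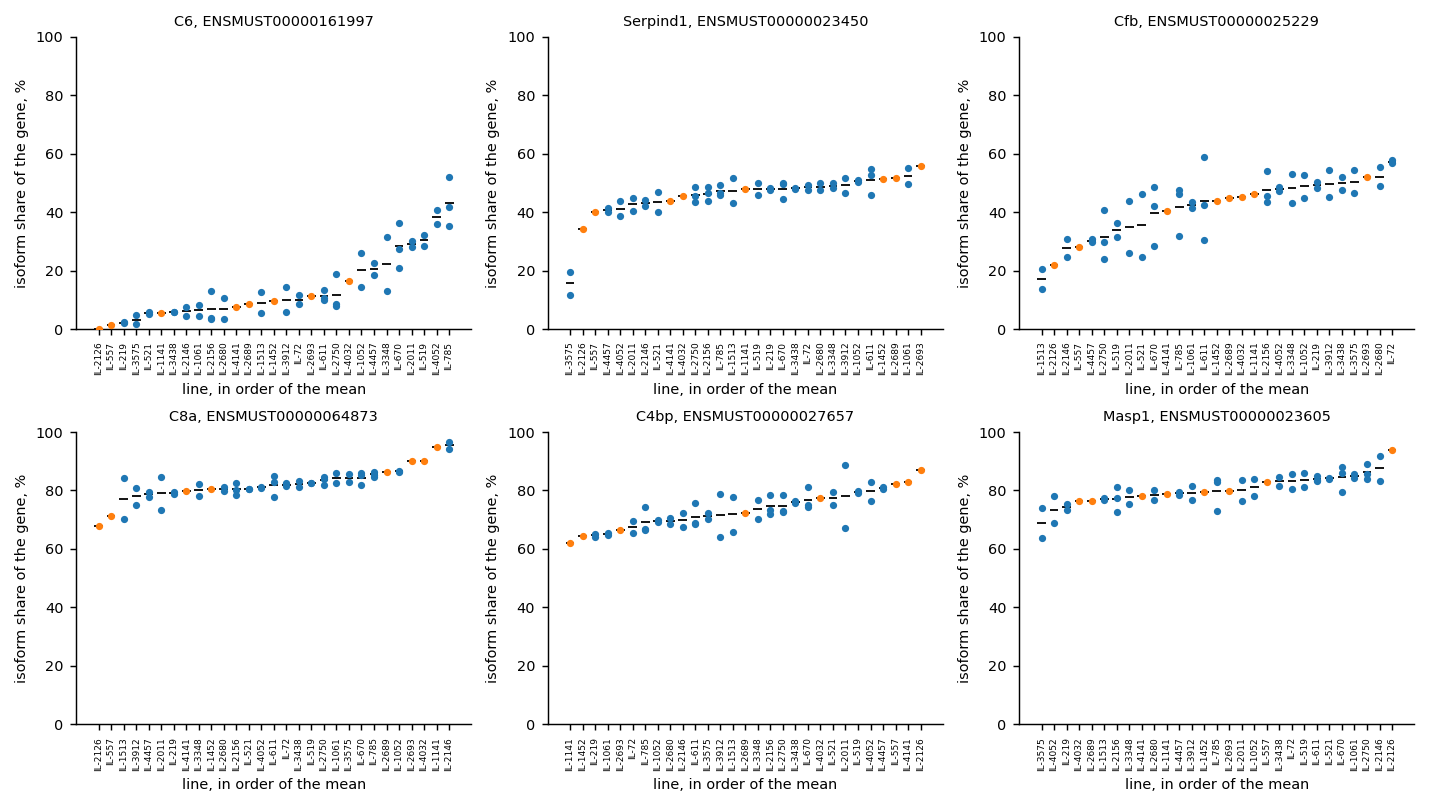
Share in percent of 1 isoform in the expression of its gene in every mouse, for the 6 genes with the widest range among lines; lines are in order of their mean (black bars), orange points are lines with 1 mouse. C6 climbs to 43.1% in IL-785, and for Serpind1 IL-3575 lies alone at 15.6%.

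Other genes of the same pathways were listed for comparison, 21 of complement and 21 of coagulation and fibrinolysis. By edgeR 40 of the 42 differed among lines, where 88.5% of all genes tested did, and Vwf and Plat did not pass (adjusted p = 0.0776 and 0.0671). Of these, 27 were kept as traits, with a median share of 0.669 and a median fold of 4.90. They were not matched to the genes above in level of expression or in cell type. C1qa, among them, was also listed as a Kupffer cell and macrophage marker, and those markers had a median fold of 12.7. C4a, the paralog of C4b, had 4.44 and 5.96 FPKM in IL-521 against 142 and 146 in IL-3438 (edgeR adjusted p = 3.42e-09). Its fragments may be shared out with those of C4b, so that its value is uncertain. Cd55, a regulator on cell surfaces, had 0.23 and 0.48 FPKM in IL-2146 and 6.19 and 4.47 in IL-3912 (edgeR adjusted p = 0.000138). IL-2146 also had the lowest line sums of endothelial and stellate cell markers, 10.7 and 11.3 FPKM, against medians of 28.5 and 65.0 over mice. Its Kupffer cell and macrophage markers summed to 75.9 and 60.6 FPKM, against a median of 68.6. The part of other cell types in the level of Cd55 was not tested.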

How the data were processed

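Livers of 55 CC mice were grouped by the line on their labels. Per the labels and the study's methods, the authors sequenced stranded polyA libraries and quantified them with RSEM version 1.2.18 and the Ensembl annotation of NCBI build 37 (mm9), with default parameters, which do not use strand. The deposited expected counts are fragments that RSEM estimated per gene, and a fragment with several matches was divided among them. From these the authors derived FPKM and TPM, which RSEM corrects for transcript length and library size. Each isoform also has a deposited ratio in percent of its gene.

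Gene symbols came from a reference list of gene names joined by gene identifier, which matched all 123 symbols used. Positions came from the reference annotation of the same build. Traits followed the study: maximum FPKM of at least 2, bins of the maximum divided by 200 but not under 0.5, at least 12 levels, van der Waerden scores. The line share of variance is the intraclass correlation (analysis of variance estimator, all 55 mice, 95% F interval). Counts were rounded and tested with edgeR 4.0.16 (quasi-likelihood F test over lines, TMM, default filter, 47 mice), with DESeq2 1.42.0 as an alternative; isoform scores with limma 3.58.1. Adjusted p-values are Benjamini-Hochberg over all genes or isoform traits tested, and the threshold was 0.05. Methods were tested on simulated data. Other steps used R 4.3.3 and Python 3.11.15 (scipy 1.17.1, numpy 2.4.6, matplotlib 3.10.9, pandas 2.3.3). No line mates differed as little as sampling noise would allow.

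The members, gene lists and pairs were chosen with earlier results of these data known. Full values were given for the 8 genes with the largest fold, the 6 with the highest and the 4 with the lowest share, the fibrinogen genes and the genes of the pairs, isoforms for the 6 genes with the widest range of the ratio, and the 4 other pathway genes of the largest fold, of which 2 are not reported here. The edgeR, DESeq2 and limma p-values set differences among lines against the spread between mice of a line. Those of the pairs come from permuting line means, in which single mice do not enter. Intervals of the share cover sampling of mice and lines. Alternatives changed the unit, filter, pseudocount, isoform, test, lines and mice. Depth was 20542671 to 33953036 estimated fragments a mouse.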

Additional observations from a re-analysis of the deposited data

How the results depend on the processing

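Under the alternatives in DESeq2, filter, mice and lines, between 37 and 40 of the 40 genes were called, where edgeR had called 39. The limma count of 12 isoform ratios lay between 9 and 15 of 15, with 9 on the percentages as deposited and 9 without IL-1052 and IL-2750, and the 12 correlated pairs between 12 and 13 of 23. In TPM the median line share of variance was 0.534, and among the 21 lines with at least 2 mice the median fold was 2.101. Leaving out single mice gave a median share between 0.579 and 0.617, a median fold between 2.18 and 2.36, 38 to 40 genes in edgeR and 9 to 15 isoform ratios. Leaving out single lines gave 12 to 13 pairs. These settings for the pairs, and all settings without IL-2156, were chosen after seeing the data. Over all settings 33 of 40 genes, 7 of 15 isoform ratios and 22 of 23 pairs kept their side of the threshold. Serpinc1 and Serpind1 were not called without an expression filter (edgeR adjusted p 0.0981 and 0.0557). Klkb1 was not called without mouse 2 of IL-2680 (0.0555), Hrg without mouse 2 of IL-3575 (0.0515) or Cfi without mouse 2 of IL-1513 (0.0601), and Plg was called without mouse 1 of IL-2680 (0.0435). Single mice moved some low line shares by more than 1.5 times: Mbl2 had 0.503 without mouse 1 and 0.454 without mouse 2 of IL-2680, Plg 0.446 without mouse 1 of IL-2750 and 0.417 without mouse 1 of IL-2680, Hrg 0.555 without mouse 1 of IL-2750, Serpinc1 0.596 without mouse 2 of IL-2680, and Cfi lay between 0.139 (without mouse 2 of IL-3575) and 0.410 (without mouse 1 of IL-2680). The cause of these changes was not tested. No paired analysis was possible because line is the only group that the labels give. Each of the 39 genes other than Cfd had at least 667 estimated fragments in every mouse.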
